A study of Mus musculus with 6 samples.

Results

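The circular RNAs (circRNAs) circMyo6, circMyo5b, circGbf1, circSnx10 and circInpp5f, from genes of myosin motors and membrane traffic, were followed in the striatum of mice that overexpress the RNA-binding protein HuD. They are the 5 circRNAs that the study's deposited table of 69 circRNAs higher in HuD-OE mice pairs with these gene symbols, out of 14236 circRNA probes on the array. Because that table was made from the same 6 arrays, the higher levels in HuD-OE mice chose these circRNAs and are given below as a description. No p is given for them, and the count past the study's limits is printed without being read as evidence. HuD-OE mice, adult males labelled as strain C57BL6 (a C57BL/6J background in the study's methods), express myc-tagged HuD from a transgene whose Camk2a promoter is active mainly in forebrain neurons. The controls (WT) were their adult male C57BL6 littermates without the transgene, and the labels name no other treatment for either group. Total RNA from the striatum of 3 mice per genotype, extracted with Trizol and digested with RNAse R to remove linear RNA, was hybridized in one color to the Arraystar Mouse circRNA Array V2, with 1 array per mouse.

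A circRNA forms when a downstream splice donor of a pre-mRNA is joined back to an upstream splice acceptor, so that one or more exons close into a ring without free ends. Rings of this kind resist exonucleases such as RNAse R and accumulate in brain. The proteins encoded by the 5 host genes act along the route of vesicles between the Golgi, endosomes and the plasma membrane. Myo6 encodes myosin VI, a motor that walks toward the minus end of actin filaments and takes part in endocytosis. Myo5b encodes myosin Vb, which walks toward the plus end and carries recycling endosomes together with Rab11. Gbf1 encodes an exchange factor that loads Arf GTPases with GTP at the Golgi. Snx10 encodes a sorting nexin of endosomes, and Inpp5f encodes a phosphoinositide phosphatase that acts on early endosomes. Nothing was measured here on the proteins or the linear mRNAs of these genes.

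Each circRNA was measured by 1 probe of 60 bases at 1 spot per array. The sequences that the deposited table lists for 4 of the probes are shown, with GAAGA (Myo6, Gbf1, Snx10) or TGCTGCT (Inpp5f) in capitals. That of circMyo5b, which carries GAAGA too, is not printed.
Myo6: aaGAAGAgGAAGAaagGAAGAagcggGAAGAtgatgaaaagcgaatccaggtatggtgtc
Gbf1: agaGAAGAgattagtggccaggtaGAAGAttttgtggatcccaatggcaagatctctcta
Snx10: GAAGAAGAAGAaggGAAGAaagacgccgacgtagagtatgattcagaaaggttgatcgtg
Inpp5f: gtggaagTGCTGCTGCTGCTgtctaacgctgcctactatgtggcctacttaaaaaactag

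Of the 60 bases, 48 were purines for circMyo6, 45 for circSnx10, 37 for circMyo5b, 36 for circGbf1 and 29 for circInpp5f. Counting overlapping matches, the motif GAAGA occurred 4 times for circMyo6, 4 times for circSnx10, 2 times for circGbf1, 1 time for circMyo5b and 0 times for circInpp5f. Among the other 64 probes of the deposited higher table, 57.8% held GAAGA on the listed strand, against 21.9% of the 653 probes in neither deposited table that the study lists as bound by HuD, from immunoprecipitation of the tagged protein out of HuD-OE striatum. On the opposite strand these shares were 7.81% and 9.19%. The longer repeat GAAGAAG, which contains GAAGA, was found in circMyo6 (1 time), circMyo5b (1 time) and circSnx10 (3 times). It occurred in 31.2% of the other 64 probes and in 3.22% of the 653 HuD-bound probes, and on the opposite strand in 0% and 0.919%. TGCTGCT, found 3 times in the circInpp5f probe, occurred in none of the other 64 and in 1.53% of the 653, and on the opposite strand in 1.56% and 2.30%. ATTTA, the core of AU-rich elements, to which HuD binds, was in none of the 5 probe sequences, in 3.12% of the other 64 and in 4.90% of the 653 (4.69% and 3.22% on the opposite strand). The repeats were picked after the sequences had been seen, the windows cover only the probe and not the whole ring, and a match describes letters and not a binding site.

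The deposited table also lists miRNAs for each circRNA, in all 25 pairs of a circRNA with one of 21 miRNAs, of which 20 had a mature sequence in RefSeq (GRCm38.p6). The match to bases 2 to 8 of the miRNA, its seed, was found within the probe sequence for 9 pairs. They are shown because they fall on the repeats above, with the seed in capitals.
mmu-miR-1903: cCUUCUUCuucuuccugagaca
mmu-miR-103-1-5p: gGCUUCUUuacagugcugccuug
mmu-miR-103-2-5p: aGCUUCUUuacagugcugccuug
mmu-miR-16-5p: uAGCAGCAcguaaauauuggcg
mmu-miR-322-5p: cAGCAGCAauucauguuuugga
mmu-miR-6342: cAGCAGCAaucuggucuuugag
mmu-miR-6353: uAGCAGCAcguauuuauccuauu
mmu-miR-6419: cAGCAGCAaucugacacaugga
The seed of miR-1903, CUUCUUC, pairs with GAAGAAG, and its match lay at base 17 of the circMyo6 probe and 3 times in the circSnx10 probe, the first from base 1. MiR-103-1-5p and miR-103-2-5p share the seed GCUUCUU, whose match occurred 1 time in the circMyo5b probe. The last 5 share the seed AGCAGCA and are all listed for circInpp5f, whose probe holds the match TGCTGCT 3 times from base 8. Of these, miR-6342, miR-6353 and miR-6419 are listed for circGbf1 too, with 0 matches in its probe. No miRNA level was measured on these arrays.

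Intensities were background-corrected by the scanner software, and levels are given as log2 intensity relative to the 75th percentile of the same array, so that 0 is the level of a spot at that percentile. The arrays were not alike. The array of WT 3 had a median intensity of 12.6, against 30.4 to 49.5 on the other 5, and 60.3% of its circRNA probes were well above background, against 87.2% to 95.7%. The scanner output places it in a separate scan from the other 5 arrays. All 3 HuD-OE arrays and WT 1 lay in the first row of array positions, and WT 2 and WT 3 in the second. All 5 circRNAs were well above background on all 6 arrays, with no spot flagged as an outlier. Repeated spots of the same probe differed on each array by an SD of 0.0534 to 0.105 on the log2 scale.

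All 5 circRNAs are annotated as exonic and lie on the plus strand. As the deposited table lists them, circMyo6 (number 44719) spans chr9:80281460-80289944, circMyo5b (31968) spans chr18:74569766-74580534 and circGbf1 (32697) spans chr19:46271554-46272654. In the same table circSnx10 (40266) spans chr6:51562017-51588428 and circInpp5f (42349) spans chr7:128679716-128690698. The table names no genome build. All 5 spans lie inside their host gene in the RefSeq annotation of GRCm38.p6, and the first base may be counted from 0.

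CircMyo6, circMyo5b, circGbf1 and circSnx10 were higher on every HuD-OE array than on any WT array, by a mean of about 4-fold for the first 3 and 5.88-fold for circSnx10, whereas the levels of circInpp5f overlapped. On the log2 scale the differences of the 4 were 2.00 to 2.56, and 1.32 to 1.62 without the array of WT 3. Within HuD-OE mice circMyo6, circMyo5b and circGbf1 varied little, and most of the spread lay among the WT mice, where WT 3 was lowest for all 4. In whole striatum, fewer cells of a type and less RNA per cell cannot be told apart.

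**Figure D1:**
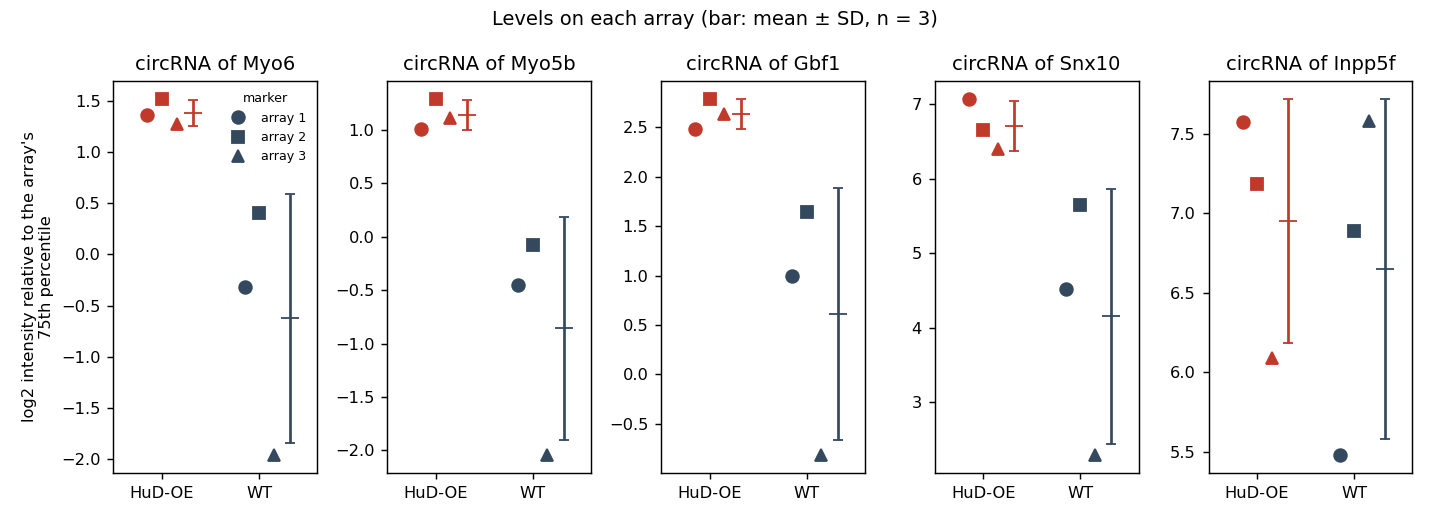
Log2 intensity relative to the array's 75th percentile (vertical axes, each with its own range) for the circRNAs of the 5 genes on 3 HuD-OE (red) and 3 WT (dark) arrays, where symbols mark the array number and bars the mean ± SD (n = 3). WT 3 (triangle) is the lowest point for Myo6, Myo5b, Gbf1 and Snx10 and the highest WT point for Inpp5f.

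Of the myosin motors, circMyo6 had levels of 1.36, 1.52 and 1.28 in HuD-OE 1, 2 and 3 and of -0.32, 0.41 and -1.97 in WT 1, 2 and 3. Its means were 1.39 ± 0.13 and -0.62 ± 1.22 (SD, n = 3 each), a difference of 2.01 (standard error 0.59), or 4.04-fold. The lowest HuD-OE array lay 0.87 above the highest WT array, so the groups did not overlap. Before scaling, the intensities were 327, 223 and 258 in HuD-OE mice and 96.5, 169 and 11.1 in WT mice. Ranked among all circRNA probes of the same array, which needs no scaling, the circMyo6 probe stood at percentiles 90.0, 91.3 and 90.5 in HuD-OE mice and at 70.7, 81.3 and 48.7 in WT mice. The order of the arrays by rank thus left HuD-OE above WT as well.

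CircMyo5b had levels of 1.01, 1.29 and 1.11 in HuD-OE mice and of -0.45, -0.08 and -2.04 in WT mice. Its means were 1.14 ± 0.14 and -0.86 ± 1.04, which differ by 2.00 (standard error 0.53), or 3.99-fold. The gap between the groups was 1.09, the widest of the 5 circRNAs. Its percentiles were 87.45, 89.77 and 89.25 in HuD-OE mice and 68.49, 74.97 and 47.28 in WT mice. Both myosin circRNAs therefore fell to the middle of the ranks on the array of WT 3 alone, where their intensities were 11.1 and 10.5.

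CircGbf1, from the Golgi exchange factor gene, had levels of 2.49, 2.79 and 2.64 in HuD-OE mice and of 1.00, 1.64 and -0.82 in WT mice. Its means were 2.64 ± 0.15 and 0.61 ± 1.28, a difference of 2.03 (standard error 0.61), or 4.08-fold. The gap between the groups was 0.84. Its percentiles were 95.04, 96.03 and 96.46 in HuD-OE mice and 87.68, 91.17 and 65.58 in WT mice.

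CircSnx10, from the sorting nexin gene, had levels of 7.07, 6.66 and 6.40 in HuD-OE mice and of 4.52, 5.65 and 2.29 in WT mice. Its means were 6.71 ± 0.34 and 4.15 ± 1.71, a difference of 2.56 (standard error 0.77). The gap between the groups was 0.75, the narrowest of the 4, although the mean difference was the widest. Its percentiles were 99.31, 99.47 and 99.71 in HuD-OE mice and 98.52, 98.43 and 91.68 in WT mice. Intensities ran from 7839 to 17081 in HuD-OE mice and were 2764, 6378 and 212 in WT mice.

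CircInpp5f, from the phosphatase gene, had levels of 7.57, 7.19 and 6.09 in HuD-OE mice and of 5.48, 6.89 and 7.58 in WT mice. Its means were 6.95 ± 0.77 and 6.65 ± 1.07, and the difference of 0.30 (standard error 0.62) was smaller than the spread within either genotype. WT 3 and HuD-OE 1 were the highest arrays, closer to each other than repeated spots of a probe, and HuD-OE 3 lay below both WT 2 and WT 3, so the groups overlapped. By rank within the array the groups did not overlap, with percentiles of 99.4, 99.6 and 99.6 in HuD-OE mice and of 99.2, 99.0 and 99.1 in WT mice. In the normalized log2 values that the study deposited for each sample, whose normalization method is not given in the sources used here, circInpp5f stood at 14.06, 14.70 and 14.57 in HuD-OE mice and at 13.44, 12.72 and 13.15 in WT mice. On those values the difference was 1.34 (standard error 0.29) and the groups did not overlap. The table that holds them chose circInpp5f as higher, so this separation follows from the choice. For circInpp5f the relation of the genotypes therefore depended on the normalization between arrays. With quantile normalization of the processed or of the median spot intensity, the difference was 1.19 and 1.27.

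The deposited normalized values stand in the table that chose these circRNAs, so higher levels there follow from the choice. On them the other 4 circRNAs were higher in every HuD-OE mouse than in any WT mouse. CircMyo6 stood there at 8.07, 8.34 and 8.23 in HuD-OE mice and at 6.64, 7.31 and 5.85 in WT mice. For circSnx10 the values were 13.53, 14.14 and 14.87 in HuD-OE mice and 12.07, 11.71 and 8.45 in WT mice. The differences of means on those values were 1.62 for circMyo6, 1.62 for circMyo5b, 1.96 for circGbf1 and 3.44 for circSnx10. WT 3 was again lowest for all 4, and without it the differences were 1.24, 1.21, 1.41 and 2.29 in the same order.

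**Figure D2:**
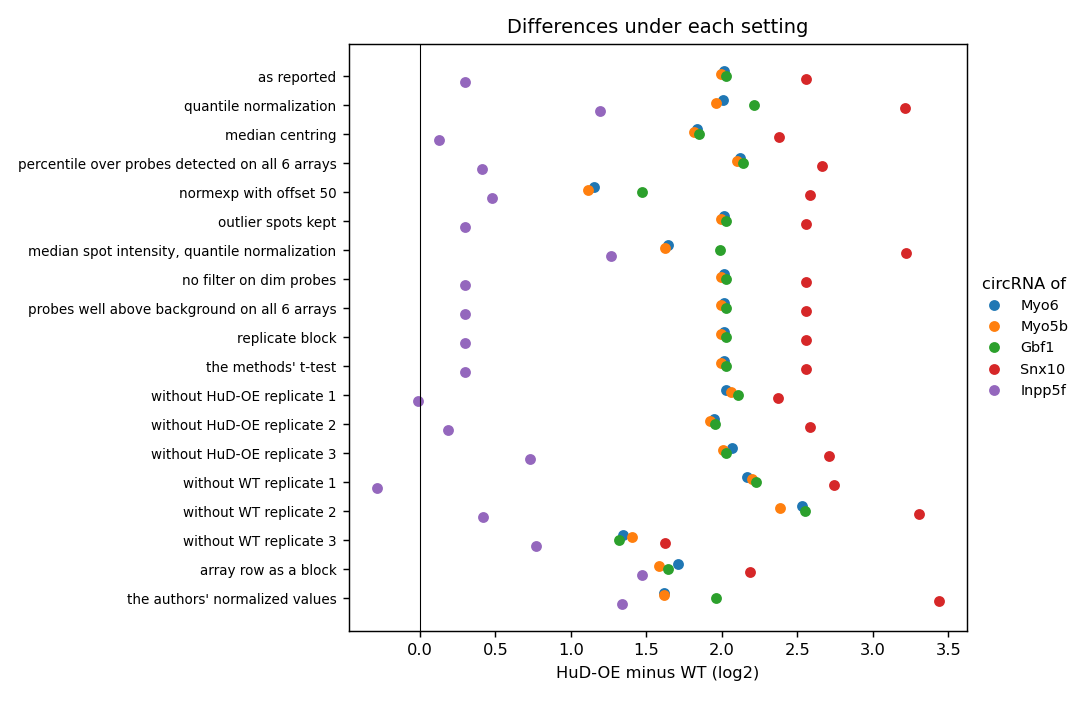
Difference HuD-OE minus WT on the log2 scale (horizontal axis) for each of the 5 circRNAs (colors) as reported and under 18 other settings (vertical axis). CircMyo6, circMyo5b, circGbf1 and circSnx10 stay at 1.11 or above throughout, while circInpp5f runs from -0.28 to 1.47.

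The limits of the study's comparison were a fold change of more than 1.5 and an unadjusted p below 0.05. By limma, 4 of the 5 circRNAs were past both limits, where 2.51% of the 13462 tested circRNA probes were past both with higher levels in HuD-OE mice. The groups did not overlap, with HuD-OE on top, for the same 4 and for 7.35% of all tested probes. By the methods' t-test, 2 of the 5 (circMyo6 and circMyo5b) were past both limits, and with the array row as a block 0 were. These counts follow from how the circRNAs were chosen. Over all tested probes, 338 were higher and 65 were lower past both limits (0.483%), and 0 passed an adjusted p of 0.05 (limma with Benjamini-Hochberg adjustment), with 403 at an unadjusted p under 0.05. The median difference of all tested probes was 0.15.

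On the scale used here, the 4 circRNAs had all HuD-OE arrays above WT 2, then WT 1, then WT 3. For circSnx10, WT 1 lay above WT 2 by rank within the array and on the authors' values. This order held for 443 of 13353 probes with a value on every array (3.32%), which is 44.7% of the 990 probes with all HuD-OE arrays on top. Among the other circRNAs of the deposited higher table it held for 46 of the 60 with all HuD-OE arrays on top (76.7%), and among the HuD-bound circRNAs for 16 of 35 (45.7%). Across the 6 arrays the levels of the 4 circRNAs correlated pairwise with Pearson's r of 0.976 to 0.998, and with -0.12 to -0.02 to circInpp5f. After each genotype's mean was subtracted, the pairwise r of the 4 was 0.947 to 0.997 and that with circInpp5f was -0.51 to -0.29. These values describe 6 arrays that share their scaling and the low WT 3 array, and carry no test.

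WT 3 lay 2.01 below the mean of WT 1 and WT 2 for circMyo6, 1.78 below for circMyo5b, 2.14 below for circGbf1 and 2.79 below for circSnx10. For circInpp5f it lay 1.40 above. Over all tested probes the median of this deviation was -0.47, with the 5th percentile at -2.15 and the 95th at 1.70. A lower value than that of circSnx10 was found for 0.923% of tested probes, and a lower value than that of circMyo6 for 6.68%. WT 3 was the lowest WT array for 56 of the 69 circRNAs in the deposited higher table (81.2%) and for 59.5% of the 13392 tested probes with a value on every WT array. Being chosen as higher in HuD-OE mice favors circRNAs with a low WT array. The part of the dim array in the differences was not tested, since its dimness, its scan and the mouse cannot be told apart.

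**Figure D3:**
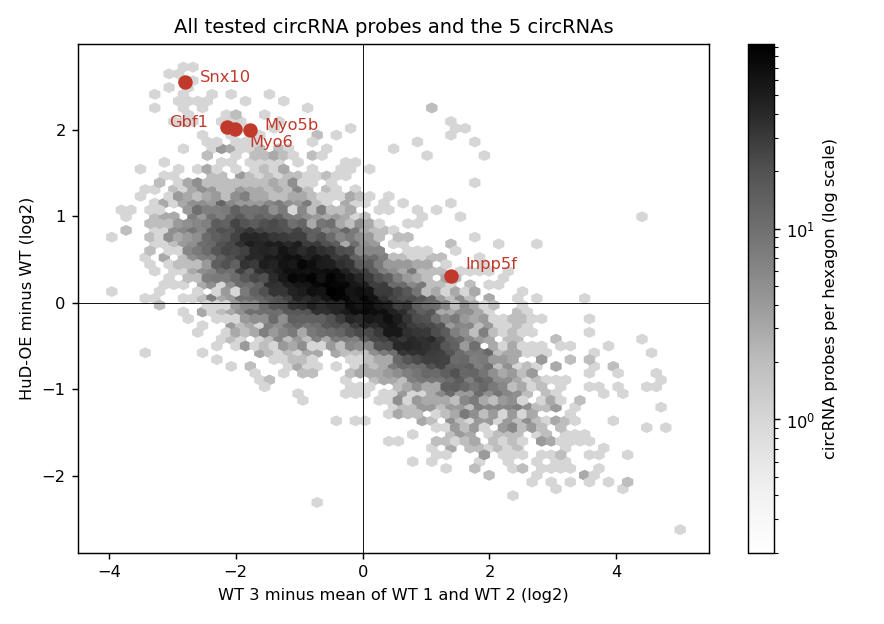
HuD-OE minus WT (vertical axis, log2) against WT 3 minus the mean of WT 1 and WT 2 (horizontal axis, log2) for the tested circRNA probes (grey hexagons, darker with more probes on a log scale) and the 5 circRNAs (red). WT 3 enters both axes, which ties them together, and Myo6, Myo5b, Gbf1 and Snx10 lie at the upper left, with differences of 2.00 to 2.56.

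Without WT 3, the differences were 1.34 for circMyo6 (standard error 0.34), 1.40 for circMyo5b (0.30), 1.32 for circGbf1 (0.33), 1.62 for circSnx10 (0.43) and 0.77 for circInpp5f (0.59). The first 4 therefore kept the direction with a smaller difference. The median of all tested probes moved from 0.15 to -0.0074 at the same time. Within the first row of array positions, which holds the 3 HuD-OE arrays and WT 1 alone of the WT arrays, the differences were 1.71, 1.59, 1.64, 2.19 and 1.47 in the same order. In that fit, which blocks on the row and rests on WT 1 alone for the difference, 0 of the 5 were past both limits.

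Among the 270 tested probes with the highest mean level (the top 2%), which include those of circSnx10 and circInpp5f, the median difference was -1.05, and WT 3 lay above both other WT arrays for 158. The deviation of WT 3 had a median of 1.24 among them, and circInpp5f, at 1.40, lay near that median while circSnx10 lay on the other side of 0. The genotype difference of circInpp5f (0.30) was exceeded by 32 of the 270 and that of circSnx10 (2.56) by 1. Both circRNAs were chosen on this contrast, so these ranks are a description.

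The circRNAs with the most similar levels over the 6 arrays were looked for among 715 circRNAs that the deposited tables or the list of HuD-bound circRNAs pair with another gene. CircMyo6 was nearest to circRNAs of Dcbld2 (Pearson's r 0.999), Kif21a (0.998) and Gbf1 (0.998). CircMyo5b was nearest to those of Fndc3a (0.999), Upf2 (0.997) and Cul3 (0.997), and circGbf1 to those of Atp2b3, Ubap2 and Myo6 (0.998 each). CircSnx10 was nearest to those of Zmynd11 (0.999), Ezh2 (0.995) and Por (0.994). All of these but Upf2 are in the deposited higher table and were thus chosen on the same contrast. Among the HuD-bound circRNAs alone, those of Upf2 and Ctnnd1 were among the 3 nearest to each of the 4, with r from 0.980 to 0.997, and the third was that of Mff for circMyo6 (0.983) and circSnx10 (0.982) and that of Qrich1 for circMyo5b (0.987) and circGbf1 (0.981). CircInpp5f was nearest to those of Srpk1 (0.960), XLOC_019302 (0.956) and Camk1d (0.890), and among the HuD-bound ones to those of Srpk1, Camk1d and Sult4a1 (0.884). With 6 arrays that share their scaling, such values are a description of the arrays.

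Other genes of motors and traffic were read from a list of 76 genes, of which 63 had 79 HuD-bound circRNAs on the array that were in neither deposited table. All 79 were tested. The circRNA number 35205 of Sec62, a component of the translocation machinery of the endoplasmic reticulum, was the 1 past both limits with higher levels, and 0 were past them with lower levels, where 2.51% and 0.483% of all tested probes were. None passed an adjusted p of 0.05 (limma with Benjamini-Hochberg adjustment, 1 at an unadjusted p under 0.05). Sec62 35205 had levels of -3.47, -3.55 and -2.83 in HuD-OE mice and of -4.37, -4.12 and -4.75 in WT mice, a difference of 1.13 (standard error 0.37, adjusted p = 0.866 from limma). Its spot was well above background on 4 arrays. The call was lost with either quantile normalization, normexp, the filter on all 6 arrays, the replicate block, the array row as a block, and without HuD-OE 3. The groups did not overlap for 5 of the 79 (6.33%), near the 7.35% of all tested probes.

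The median difference of the 79 was 0.37 and 67 of them were above 0, against a median of 0.15 and 61.9% over all tested probes and of 0.27 and 74.2% over all 652 HuD-bound circRNAs tested outside the deposited tables. Without WT 3 the median of the 79 was -0.0087, with 37 above 0, and with the array row as a block it was -0.21. With median centring it was 0.19, where the median of all tested probes was -0.03. By class, the median was 0.42 for 9 circRNAs of kinesins, dynein and motor adaptors, 0.42 for 10 of Arf GTPases and their regulators, 0.40 for 15 of Rab GTPases and their regulators or effectors, and 0.45 for 9 of the Golgi and secretory route. It was 0.39 for 7 of sorting nexins, sorting receptors and cargo, 0.37 for 9 of endocytosis and coats, 0.22 for 13 of vesicle fusion and 0.079 for 5 of phosphoinositide enzymes. The 2 circRNAs of myosins had a median of 0.63, with a median WT 3 deviation of -2.92, and neither difference would be positive without WT 3. CircRNAs in the deposited tables were left out of the list, so its values are no background for the 5 circRNAs chosen from those tables.

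**Figure D4:**
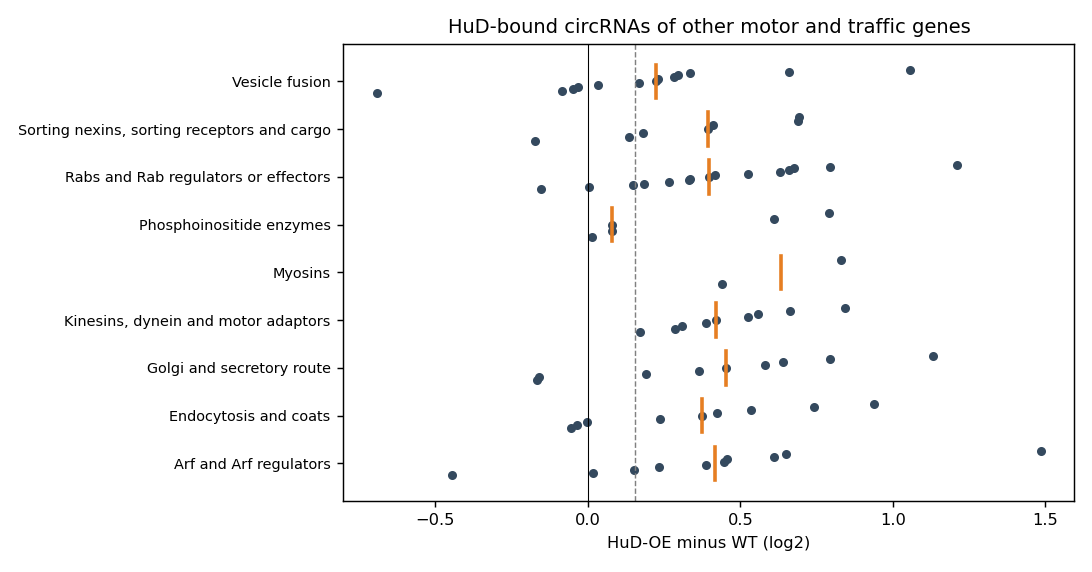
HuD-OE minus WT (horizontal axis, log2) for 79 HuD-bound circRNAs of other motor and traffic genes by class (dark points, with the class median as an orange bar), with the median of all tested probes (0.15) dashed. The values lie between -0.69 and 1.49, and 67 of the 79 are above 0.

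Closest in kind to the myosin circRNAs were 2 circRNAs of Myo5a, which encodes myosin Va, a motor of the same class as myosin Vb. Their differences were 0.83 (standard error 1.04) for number 44637 and 0.44 (standard error 0.85) for number 11066, each smaller than its error. WT 3 was at -4.53 and -4.12, and without it neither difference would be positive. For 44637 the HuD-OE mean was -1.24, against -0.40 in WT 1 and -1.29 in WT 2. For 11066 it was -2.25, against -1.76 and -2.19. The only other sorting nexin on the list, Snx13, had a difference of 0.69 (standard error 0.61). The highest of the list was circRNA 37537 of Smap2, which encodes an Arf GTPase-activating protein, with 1.49 (standard error 0.79). Next were circRNA 44440 of Rab11a, the recycling endosome GTPase that myosin Vb binds, with 1.21 (standard error 0.64), and the Sec62 circRNA above. WT 3 deviations were -3.03 for Smap2, -2.21 for Rab11a and -0.505 for Sec62, so the values and places of Smap2 and Rab11a rest largely on that array. The lowest were circRNA 27321 of Erc2, a protein of the presynaptic active zone, with -0.69 (standard error 0.89), circRNA 39201 of Git2, another Arf GTPase-activating protein, with -0.45 (standard error 0.37), and circRNA 38529 of Nsg1, a neuronal endosomal protein, with -0.17 (standard error 0.57). Of these 6, the Sec62 circRNA alone was past the limits.

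A further 2 genes of the list are in the deposited higher table, and so were chosen on this contrast. The circRNA 28955 of the kinesin gene Kif21a had levels of 5.85, 5.83 and 5.82 in HuD-OE mice and of 3.78, 4.66 and 1.78 in WT mice, a difference of 2.43 (standard error 0.67). As for circMyo6, all HuD-OE arrays lay above WT 2, then WT 1, then WT 3. The circRNA 12939 of Wdr7, a subunit of the rabconnectin complex, differed by 1.28 (standard error 0.42).

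Base composition of the probe was set beside these measures over the 652 HuD-bound circRNAs. Pearson's r of the purine share was 0.37 with the difference between genotypes, -0.32 with the deviation of WT 3, and 0.18 with the difference of HuD-OE from WT 1 and WT 2 alone, and -0.29 with the mean level. The GC share had an r of -0.11 with the difference between genotypes and of 0.29 with the deviation of WT 3, about as large as that of the purine share. The probes share arrays and scaling, and the values describe the probes. The 21 HuD-bound circRNAs with GAAGAAG, outside the deposited tables, had a median difference of 0.36, against 0.27 for the 631 without it, and a median WT 3 deviation of -1.20 against -0.95. The 10 with TGCTGCT had a median difference of -0.19 and a median WT 3 deviation of 0.44, against 0.28 and -0.97 for the 642 without it. Of the 4 circRNAs that were lowest in WT 3, circMyo6, circMyo5b and circSnx10 carry GAAGAAG, with WT 3 deviations of -2.01, -1.78 and -2.79. CircGbf1, with a deviation of -2.14, carries GAAGA 2 times and no GAAGAAG. CircInpp5f, whose WT 3 level was the highest of the WT arrays on this scale but below WT 1 on the authors' values, carries TGCTGCT. The part of the probe sequence in these levels was not tested.

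Host genes that mark cell types were checked through the circRNAs paired with them. Striatal projection neuron genes had 8 circRNAs from 4 genes, 6 of them well above background on all 6 arrays, with differences from 0.042 to 1.23. The lowest, of Pde7b, had a WT 3 deviation of -0.87 and the highest, of Arpp21, one of -2.48. The Foxp1 circRNA of probe ASCRP4009892, at 0.64, is in the deposited higher table and so was chosen on this contrast. Cortical excitatory neuron genes had 4 circRNAs with differences from -0.52 to 0.33, the astrocyte gene Slc1a2 had 1 at -0.094, and the oligodendrocyte gene Qk had 2 at 0.34 and 1.14. None of these was past both limits, and no circRNA was paired with a microglial or endothelial gene of the list. Cell mixture was thus read from few circRNAs, and its part in the results was not tested.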

How the data were processed

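The authors deposited scanner values per array (Feature Extraction 11.0.1.1, Cy3), with a linear, background-corrected intensity per spot that was not scaled between arrays. They also deposited 2 tables of circRNAs called higher (69, fewer than the study states) or lower (4). Both hold raw intensities and normalized log2 values per sample. The fold changes and p-values of the authors' comparison in them were not used. The raw intensities equal the scanner's median spot intensity, without conversion to log2. The normalization is not given in the sources used here.

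Processed intensities were converted to log2, minus the array's 75th percentile over non-control spots. Outlier spots (31 to 106 per array) were left out, and no spot was saturated. Probes well above background on at least 3 arrays were fitted with limma 3.58.1 (R 4.3.3, lmFit and eBayes, two-sided, no block), with Benjamini-Hochberg adjustment over all 13462. The fit was tested on simulated data.

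Genes come from the deposited tables and the study's list of HuD-bound circRNAs, from which only names and probe sequences were taken (the copy used holds 658, fewer than the study states). No table pairs a probe with Elavl4, so the transgene could not be checked. Named are the 5 circRNAs, list circRNAs past both limits, the 3 highest and 3 lowest of the list and the 3 nearest circRNAs by Pearson's r. Myo5a, Snx13, Kif21a and Wdr7 were added after their values were seen. The circRNAs and lists were chosen with earlier results of these data known. Each array is taken as 1 mouse. The number of arrays, 3 per genotype, limits the precision. Figures were drawn with matplotlib 3.10.9 (Python 3.11.15).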

Additional observations from a re-analysis of the deposited data

How the results depend on the processing

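CircMyo6, circMyo5b, circGbf1 and circSnx10 stayed higher in HuD-OE mice in all 18 alternatives, with differences of 1.16 to 2.53, 1.11 to 2.38, 1.32 to 2.55 and 1.62 to 3.44. They were chosen as higher on these arrays, so the alternatives describe the size of the differences and are no support for their direction. With groups that did not overlap, leaving out 1 array cannot change the direction. CircMyo5b was lowest, at 1.11, with normexp background correction and an offset of 50, where circMyo6 was at 1.16. CircInpp5f ran from -0.28 without WT 1 to 1.47 when the array row was a block, and was above 0 in 16 of 18. It had 1.27 with quantile-normalized median spot intensity and 1.34 on the authors' normalized values. The row block, the median spot intensity and the authors' values were chosen after seeing the data. With one array left out at a time, the differences ranged from 1.34 to 2.53 (circMyo6), 1.40 to 2.38 (circMyo5b), 1.32 to 2.55 (circGbf1), 1.62 to 3.30 (circSnx10) and -0.28 to 0.77 (circInpp5f). For the first 4, the lowest was always without WT 3 and the highest without WT 2.

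The number past both limits, 4 of 5 as a description of circRNAs chosen on this contrast, was 5 with either quantile normalization, 2 by the methods' t-test, 0 with the row block, and 4 whichever array was left out. Of the list of 79, the 1 higher circRNA became 0 with either quantile normalization, normexp, the filter on all 6 arrays (57 tested), the replicate block or the row block, 2 by the t-test, and 0 (without HuD-OE 3) to 5 (without WT 1) with one array left out, and 4 without HuD-OE 2. None was lower in any alternative. Over all tested probes, the 338 higher became 127 with normexp, 131 with the filter on all 6 arrays, 192 with the replicate block, 74 with the row block and 180 to 769 with one array left out. The 65 lower became 99 with quantile normalization, 301 with normexp, 112 with quantile-normalized median intensity, 20 by the t-test, 17 with the row block and 5 to 716 with one array left out. The causes of these shifts were not tested.

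The replicate numbers were not taken as pairs. Deviations of same-numbered arrays from their group means correlated at -0.24, -0.24 and -0.59 over 8408 probes. The replicate block left the count of 4 in place. It cannot change the 5 differences in this balanced design, so these carry no information on pairing. Normexp used the median spot intensity, since the files hold no mean. The scan as a block equals leaving out WT 3 and was not fitted apart. At intensities of 11.1 (circMyo6) and 10.5 (circMyo5b), WT 3 was dim for both myosin circRNAs. Their differences moved most with normexp, which also starts from the median spot intensity and adds an offset, so background correction alone was not varied.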
